A study of Mus musculus with 9 samples.

Results

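The genes examined were 10 genes of the type 2 T-cell programme, taken by name from the 35288 genes of the count matrix and matched through their Ensembl identifiers: the cytokines Il4, Il5 and Il13, the receptors Il1rl1, Il4ra and Ptgdr2, and the transcription factors Gata3, Maf, Nfil3 and Stat6. Of these, 9 reached the level needed for testing, among 13697 tested genes, and Ptgdr2 did not. Type 2 immunity is the arm of the immune response directed against helminths and in allergy. In T helper 2 cells, IL-4 binds a receptor that contains IL-4Ra, STAT6 is phosphorylated and enters the nucleus, GATA3 is induced, and GATA3 opens the cluster that holds Il4, Il5 and Il13. The alarmin IL-33 acts on ST2, the product of Il1rl1, which is found on T helper 2 cells, mast cells and group 2 innate lymphoid cells, and on some activated CD8 T cells. Loss of SMARCB1, a core subunit of the SWI/SNF chromatin remodelling complex, defines the lymphomas that T15 stands for.

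Bulk RNA-seq was made from T15, a murine Smarcb1-negative peripheral T-cell lymphoma (PTCL) line, with 3 biological replicates in each of 3 groups. Control libraries came from T15 cells without either intervention, SAHA libraries from cells given SAHA (vorinostat, an inhibitor of histone deacetylases) at 1 µM, added 2 times within 72 h, and Smarcb1-RE libraries from cells carrying the lentiviral plasmid pInd20 with Smarcb1, selected in G418 and induced with doxycycline (Dox, 0.5 µg/µl) for 72 h. The study's text calls the control cells untreated, whereas the labels mention a vehicle for SAHA and a control plasmid for re-expression without saying which of these the 3 control libraries received. In Smarcb1-RE, effects of Smarcb1 therefore cannot be told apart from those of transduction, antibiotic selection, clonal origin and Dox. The study derived stable clones after selection, and the library titles do not say whether the 3 Smarcb1-RE libraries share a clone. For the SAHA dose used here, the study reports strong apoptosis in this line, with most cells dead. The part of dying or surviving cells in the SAHA values was not tested. All values come from this 1 cell line, so p-values measure the spread between its cultures only.

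Library totals ranged from 20900424 to 24941408 counts, and 3 counts, used here as the floor of detection, corresponded to 0.123 to 0.133 CPM (the counts of each library scaled to a common total after TMM normalization); this floor covers counting error only. Smarcb1 itself gave 2, 5 and 8 counts in control, 7, 13 and 3 with SAHA and 151, 147 and 142 in Smarcb1-RE, a log2 fold change of 4.89 (SE 0.36, adjusted p = 6.19e-08, edgeR) for Smarcb1-RE against control. The chi-square per gene between replicates ran from 2.07 to 14.1, with both values above 12 in pairs that included control replicate 1, and leaving that library out changed no call among the type 2 genes. Of 12 T-cell markers, 8 were expressed well above the floor, including Cd3e (396 CPM in control) and Cd8a (690 CPM in control), whereas Cd4 had 0 counts in all 9 libraries and Cd2, Cd5 and Thy1 had at most 6. T15 thus carried CD8 rather than CD4 transcripts, and several pan-T-cell markers were at or near 0.

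The cytokine genes lie together. In GENCODE M21 (GRCm38), Il4 (ENSMUSG00000000869) spans chr11:53602982-53618669 on the minus strand, Il13 (ENSMUSG00000020383) spans chr11:53631324-53634702 on the minus strand, 12.7 kb away, and Il5 (ENSMUSG00000036117) spans chr11:53720794-53725106 on the plus strand, 86.1 kb from Il13 with Rad50 in between. The receptors are on other chromosomes, with Il1rl1 (ENSMUSG00000026069) at chr1:40429570-40465415, Il4ra (ENSMUSG00000030748) at chr7:125552120-125579474 and Ptgdr2 (ENSMUSG00000034117) at chr19:10937160-10942511, all on the plus strand. Of the factors, Gata3 (ENSMUSG00000015619) is at chr2:9857078-9890034, Maf (ENSMUSG00000055435) at chr8:115682942-115707794 and Nfil3 (ENSMUSG00000056749) at chr13:52967209-52981073, all on the minus strand, and Stat6 (ENSMUSG00000002147) is at chr10:127642986-127660957 on the plus strand.

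Since GATA3 and STAT6 are the DNA-binding factors of this programme, the 250 bases before annotated transcription starts were read for their motifs in the RefSeq promoter table (GRCm38.p6), which held 11 starts for 9 of the 10 genes. The GATA motif was searched as AGATAA with its variant AGATAG, and as TGATAA with its variant TGATAG, on both strands, and the STAT6 motif as TTCNNNNGAA, which reads as itself on the opposite strand. No GATA match overlapped a STAT6 match. Shown are both Il1rl1 starts (the gene with the deepest fall), the start windows of the 3 cytokine genes and that of Gata3, each 5′ to 3′ on the gene's own strand and ending at the base before the start, with motif matches in capitals.
Il1rl1, distal start, chr1:40429320-40429569, plus strand: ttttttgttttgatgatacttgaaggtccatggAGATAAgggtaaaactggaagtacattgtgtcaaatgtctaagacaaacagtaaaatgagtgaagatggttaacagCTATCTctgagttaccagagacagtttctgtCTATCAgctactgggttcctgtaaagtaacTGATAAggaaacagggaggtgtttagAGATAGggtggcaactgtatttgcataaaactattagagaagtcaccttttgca
Il1rl1, proximal start, chr1:40439379-40439628, plus strand: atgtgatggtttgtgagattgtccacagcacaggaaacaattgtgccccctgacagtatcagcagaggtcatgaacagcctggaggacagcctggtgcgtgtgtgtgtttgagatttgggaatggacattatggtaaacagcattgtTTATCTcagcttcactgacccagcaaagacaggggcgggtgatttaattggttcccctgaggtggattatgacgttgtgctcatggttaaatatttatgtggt
Il13, chr11:53634703-53634952, minus strand: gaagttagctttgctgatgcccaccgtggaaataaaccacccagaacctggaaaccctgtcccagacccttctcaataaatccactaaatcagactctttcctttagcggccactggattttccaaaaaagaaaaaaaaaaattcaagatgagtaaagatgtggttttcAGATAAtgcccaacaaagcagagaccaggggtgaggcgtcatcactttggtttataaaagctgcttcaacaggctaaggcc
Il5, chr11:53720544-53720793, plus strand: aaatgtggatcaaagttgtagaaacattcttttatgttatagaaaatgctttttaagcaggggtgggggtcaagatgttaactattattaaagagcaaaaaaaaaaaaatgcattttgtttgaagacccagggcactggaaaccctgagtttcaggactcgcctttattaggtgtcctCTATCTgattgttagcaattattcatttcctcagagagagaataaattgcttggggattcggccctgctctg
Il4, chr11:53618666-53618915, minus strand: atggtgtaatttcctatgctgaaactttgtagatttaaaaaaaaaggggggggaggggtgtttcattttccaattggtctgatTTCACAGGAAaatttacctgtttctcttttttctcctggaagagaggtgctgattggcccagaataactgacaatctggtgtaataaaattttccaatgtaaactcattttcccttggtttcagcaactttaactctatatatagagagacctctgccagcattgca
Gata3, chr2:9878601-9878850, minus strand: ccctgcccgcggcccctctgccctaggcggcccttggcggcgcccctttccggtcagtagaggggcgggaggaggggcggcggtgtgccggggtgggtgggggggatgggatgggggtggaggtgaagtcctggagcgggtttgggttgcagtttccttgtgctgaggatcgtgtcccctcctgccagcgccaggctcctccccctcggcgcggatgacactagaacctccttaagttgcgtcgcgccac

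The distal Il1rl1 window held 5 GATA matches, beginning 217, 141, 110, 80 and 54 bases before the start. At least 1 such match was found in 26.5% of 32851 mouse promoter windows of this length, and at least 5 in 14 windows (0.0426%). The proximal Il1rl1 window, inside an intron of the longer transcript except for 2 exonic bases, held 1 GATA match. Il13 and Il5 had 1 GATA match each, and the printed Il4 window had none but held the STAT6 match TTCACAGGAA, a motif found in 5.85% of windows. A further Il4 start within the gene had 1 GATA match. The Gata3 window, at 70.0% GC with 19 CpG dinucleotides, held neither motif, and the windows of Il4ra, Stat6, Nfil3 and Ptgdr2 held neither. That Gata3 window lies inside the annotated span of the gene, so the 5′ end of the span was not read. These are matches of letters only, and counts per gene cannot tell the transcripts from the 2 Il1rl1 starts apart, nor the soluble from the membrane form of ST2.

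The type 2 genes did not move as a block. In Smarcb1-RE against control, Gata3 rose 5.95-fold and Il5 3.99-fold, while Il1rl1 fell to the floor, at least 36.7-fold below control, Il13 fell by 50.1%, Il4ra fell by 41.5%, Maf fell by 64.4% and Nfil3 fell by 19.4%. In SAHA against control, Il1rl1 rose 1.62-fold, Nfil3 1.42-fold, Il4ra 1.17-fold and Stat6 1.15-fold, and Il13 fell by 16%. Genes were called at a Benjamini-Hochberg adjusted p under 0.05 over all 13697 tested genes (edgeR's quasi-likelihood test, 1 fit to the 9 libraries). Both comparisons use the same 3 control libraries, so their values are not independent of each other.

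Counted over the list, SAHA against control had 4 of 9 tested genes called higher and 1 lower, where 32.6% of all tested genes were called higher and 34.3% lower. Smarcb1-RE against control had 3 higher and 5 lower, with 39.2% and 38.6% in the background. In the direct comparison of Smarcb1-RE with SAHA, 1 was higher and 5 lower, against 37.7% and 36.8%. The median log2 fold changes of the 9 genes were 0.2, -0.46 and -0.75 in these 3 comparisons, where the medians of all tested genes were 0, 0.01 and 0.02. With a log2 fold change of at least 1 in size also required, SAHA against control had none of the type 2 genes (background 9.85% higher and 2.35% lower). Smarcb1-RE against control then had Gata3 and Il5 higher and Il13, Il1rl1 and Maf lower (background 16.9% and 6.78%), and Smarcb1-RE against SAHA had Gata3 higher and Il1rl1, Il4ra and Maf lower (background 11.5% and 8.21%). Since most tested genes were called in each comparison, these counts over 9 genes are a description only. In bulk RNA, fewer cells expressing a gene and less RNA per cell cannot be told apart.

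**Figure D1:**
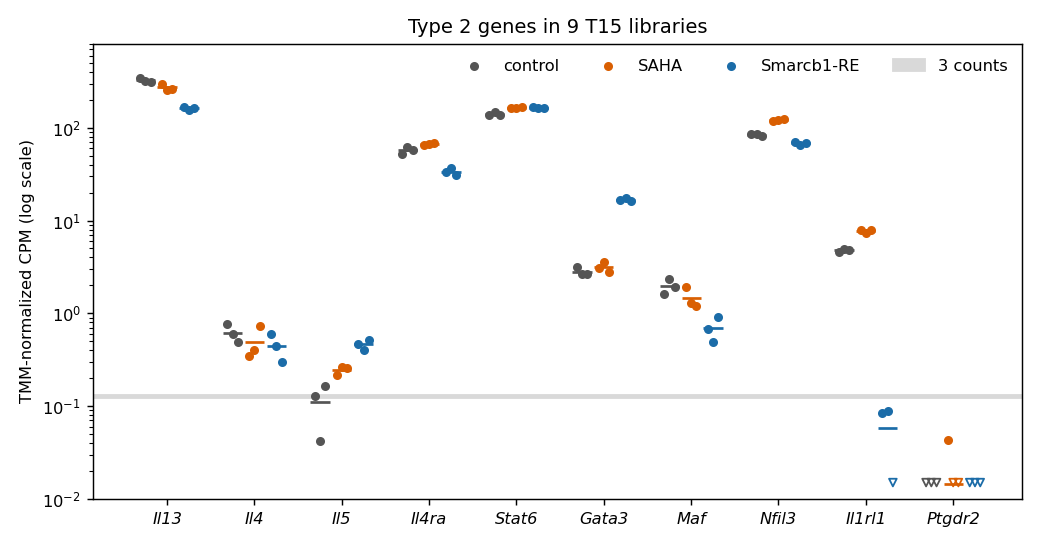
TMM-normalized CPM of the 10 type 2 genes on a log scale, 1 point per library and a bar at each group mean of 3 libraries, with open triangles for libraries at 0 counts and a grey band at the level of 3 counts. Il13 is the most abundant gene in control and SAHA, Gata3 is higher in all 3 Smarcb1-RE libraries, and the Smarcb1-RE libraries of Il1rl1 lie below the band.

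Scaled by exon length, the levels in control fell into a steep order. Il13 stood at 271 CPM per kb of exon, followed by Nfil3 at 41.7, Stat6 at 32.2 and Il4ra at 9.54 CPM per kb. Gata3 (0.707) and Il1rl1 (0.692) came next with overlapping ranges, then Il4 (0.503), Maf (0.238) and Il5 (0.0725), and Ptgdr2 was at 0. Il13 ranked 202nd of 13639 genes, within the top 1.48%, whereas Gata3 ranked 10914th. In SAHA the order of the genes at the top was the same, with Il13 at 227, Nfil3 at 59.4, Stat6 at 37.1 and Il4ra at 11.2 CPM per kb, and Maf and Il5 overlapped. In Smarcb1-RE, Stat6 (37.5 CPM per kb) stood above Nfil3 (33.6), Gata3 reached 4.21, just under Il4ra (5.59), and Il1rl1 dropped to 0.00841, where it overlapped Ptgdr2. Il4 and Il5 also overlapped in Smarcb1-RE. The control cells therefore held much Il13 mRNA beside little Gata3 mRNA.

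Among the cytokines, Il13 carried nearly all of the signal. IL-13 is the effector cytokine of mucus production, airway reactivity and worm expulsion. Il13 counts were 8125, 7525 and 7645 in control, 6909, 5837 and 6126 with SAHA and 3955, 3515 and 3786 in Smarcb1-RE, or 326 ± 17, 274 ± 22.3 and 163 ± 6.6 CPM (SD, n = 3). No group overlapped another, and the order was control, SAHA, Smarcb1-RE. The log2 fold change was -0.25 (SE 0.06, adjusted p = 0.00221) in SAHA and -1 (SE 0.06, adjusted p = 8.71e-09) in Smarcb1-RE, each against control by edgeR's test, and -0.75 (SE 0.06, adjusted p = 1.49e-07) between Smarcb1-RE and SAHA. Even at its lowest, in Smarcb1-RE, Il13 ranked 285th of 13639 genes per length.

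Il4, which encodes the cytokine that starts T helper 2 differentiation, was barely above the floor. Its counts were 18, 14 and 12 in control, 8, 9 and 17 with SAHA and 14, 10 and 7 in Smarcb1-RE. The 3 groups overlapped throughout, and no comparison was called. The 95% interval of the log2 fold change reached from -1.13 to 0.5 in SAHA and from -1.28 to 0.37 in Smarcb1-RE against control. Differences within these bounds therefore remain possible. Per length, the ratio of Il13 to Il4 was 460 to 649 in the control libraries, 367 to 879 in SAHA and 288 to 551 in Smarcb1-RE.

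Il5, encoding the growth factor of eosinophils, moved against Il13. Counts were 3, 1 and 4 in control, 5, 6 and 6 with SAHA and 11, 9 and 12 in Smarcb1-RE, and the groups did not overlap. The increase in Smarcb1-RE against control was called (log2 fold change 2, SE 0.45, adjusted p = 0.00128, edgeR), with a ratio of the summed and scaled counts of 4.13 (95% exact counting interval 1.86 to 10.4). SAHA against control gave 1.1 (SE 0.5, adjusted p = 0.0799) and Smarcb1-RE against SAHA 0.89 (SE 0.39, adjusted p = 0.0548), and neither passed. All of this took place at or just above the floor, at 0.462 ± 0.0599 CPM (SD, n = 3) in Smarcb1-RE. The per-length ratio of Il13 to Il5 went from 2440 to 9600 in the control libraries to between 402 and 498 in Smarcb1-RE. The neighbouring cytokine genes thus differed in direction and size.

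Among the receptors, Il1rl1 showed the most contrast. Counts were 107, 116 and 118 in control, 184, 165 and 185 with SAHA, and 2, 2 and 0 in Smarcb1-RE. Every SAHA library was above every control library, and every Smarcb1-RE library was at or under the floor. In CPM the means were 4.77 ± 0.191 in control, 7.74 ± 0.391 in SAHA and 0.058 ± 0.0502 in Smarcb1-RE (SD, n = 3). SAHA against control gave a log2 fold change of 0.7 (SE 0.15, adjusted p = 0.00107, edgeR). Against the floor, Smarcb1-RE was at least 36.7-fold lower than control and at least 59.5-fold lower than SAHA (adjusted p = 1.44e-09 and 4.02e-10, edgeR). The 2 interventions thus left Il1rl1 on opposite sides of control.

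ST2 is also carried by mast cells and basophils, whose markers were followed for that reason. Of 9 such markers, 7 were at or under the floor in all 9 libraries, and Cpa3, Mcpt4, Mcpt8 and Tpsb2 had 0 counts throughout. The summed level of the list was 0.617 to 0.888 CPM in control, 1.94 to 2.3 CPM in SAHA and 0.474 to 0.664 CPM in Smarcb1-RE. Ms4a2, a chain of the IgE receptor, rose from 14, 15 and 12 counts to 37, 29 and 32 in SAHA (log2 fold change 1.3, adjusted p = 0.000564, edgeR), and Gata2, a factor of the mast cell lineage, rose from 0, 5 and 3 to 14, 23 and 13 (2.64, adjusted p = 0.00122). These shifts moved in the same direction as Il1rl1 in SAHA, and their part in its change was not tested.

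Il4ra, the chain shared by the IL-4 and IL-13 receptors, also moved in opposite directions. Its counts of 1229, 1453 and 1412 in control compared with 1516, 1514 and 1598 with SAHA and 777, 822 and 720 in Smarcb1-RE. The log2 fold change was 0.23 (SE 0.06, adjusted p = 0.00661) in SAHA and -0.77 (SE 0.07, adjusted p = 2.99e-07) in Smarcb1-RE against control, and -1 (SE 0.07, adjusted p = 2.68e-08) between the treatments by edgeR's test. All 3 groups were separate. Ptgdr2, the prostaglandin D2 receptor CRTH2 and a surface marker of type 2 cells, had 1 count in SAHA replicate 1 and 0 in the other libraries, which allows up to 3 counts or 0.133 CPM in any of them. Its gene overlaps Ccdc86 on the opposite strand, which had 437 to 1640 counts.

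Of the transcription factors, Gata3 responded to Smarcb1-RE alone at the threshold used. GATA3 is the zinc-finger factor that defines type 2 cells and is also needed earlier in T-cell development. Counts were 74, 63 and 64 in control, 71, 82 and 65 with SAHA and 391, 394 and 375 in Smarcb1-RE, corresponding to 2.81 ± 0.289, 3.17 ± 0.42 and 16.8 ± 0.639 CPM (SD, n = 3). Control and SAHA overlapped (log2 fold change 0.17, 95% interval -0.11 to 0.45, adjusted p = 0.281), whereas Smarcb1-RE lay above both, by 2.57 (SE 0.11, adjusted p = 4.65e-10) and 2.4 (SE 0.11, adjusted p = 8.16e-10, edgeR), and the latter is the test of the difference between the treatments. Overlapping genes gave 0 to 3 counts (4930412O13Rik) and 1 to 7 counts (9230102O04Rik).

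Maf, which encodes c-MAF, a basic leucine zipper factor that drives Il4 in T helper 2 cells and Il10 in several T-cell types, went the other way. Counts were 38, 55 and 47 in control, 44, 29 and 28 with SAHA and 16, 11 and 21 in Smarcb1-RE. SAHA overlapped control (log2 fold change -0.42, SE 0.26, adjusted p = 0.178), and Smarcb1-RE was below both, by -1.49 against control (SE 0.29, adjusted p = 0.000388) and -1.07 against SAHA (SE 0.3, adjusted p = 0.0053, edgeR). Il10, a cytokine of type 2 and regulatory T cells, had 2, 1 and 5 counts in control, 2, 0 and 2 with SAHA and 85, 89 and 111 in Smarcb1-RE. It was at least 31.5-fold higher in Smarcb1-RE than in SAHA and had a log2 fold change of 5.14 (SE 0.40, adjusted p = 1.1e-07, edgeR) against control. Maf and Il10 therefore moved in opposite directions in Smarcb1-RE.

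Nfil3 and Stat6 were the more abundant factors. NFIL3 is a basic leucine zipper factor needed for innate lymphoid cells and able to modulate cytokine expression in T helper 2 cells. Nfil3 counts were 2031, 2003 and 2005 in control, 2734, 2706 and 2860 with SAHA and 1626, 1485 and 1607 in Smarcb1-RE. The groups were separate, with a log2 fold change of 0.51 (SE 0.04, adjusted p = 2.31e-07) in SAHA, -0.31 (SE 0.04, adjusted p = 1.49e-05) in Smarcb1-RE and -0.82 (SE 0.04, adjusted p = 1.67e-09) between them (edgeR). Like Il1rl1 and Il4ra, Nfil3 was thus above control with SAHA and below it in Smarcb1-RE.

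Stat6, the signal transducer of IL-4 and IL-13, had 3269, 3485 and 3392 counts in control, 3761, 3656 and 3846 with SAHA and 3918, 3715 and 3788 in Smarcb1-RE. It was the gene of the list called higher in both comparisons with control, by 0.2 (SE 0.04, adjusted p = 0.000373) in SAHA and 0.22 (SE 0.04, adjusted p = 0.000157, edgeR) in Smarcb1-RE. Between the treatments it differed by 0.01 (95% interval -0.07 to 0.1), with overlapping libraries. Stat6 overlaps Nab2 on the opposite strand, which had 3134 to 4817 counts and log2 fold changes of 0.18 in SAHA and -0.36 in Smarcb1-RE. Whether the counting used strand is not stated in the sources used here, so reads of these overlapping genes may not be fully separated.

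**Figure D2:**
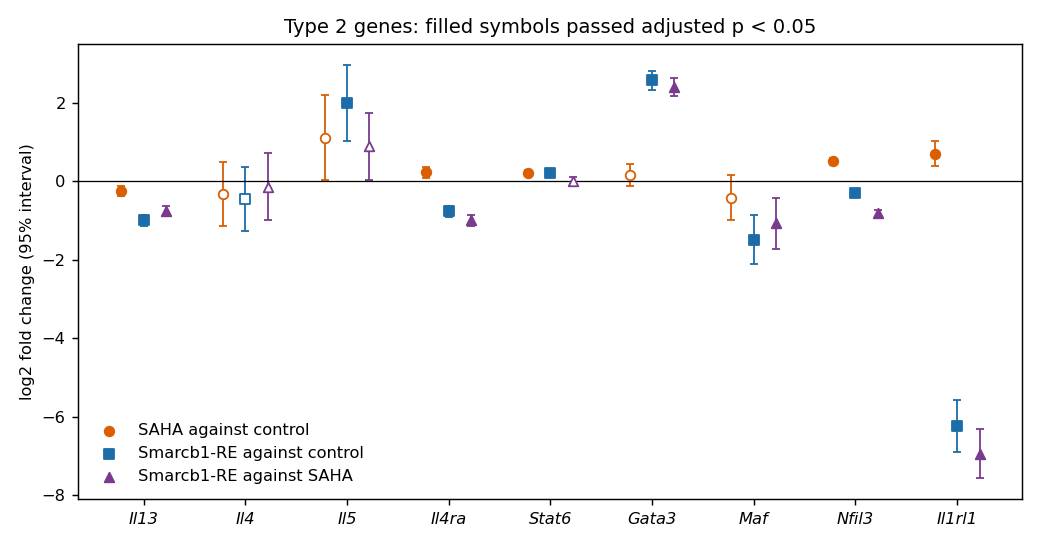
Log2 fold change of the 9 tested type 2 genes with 95% intervals in SAHA against control (circles), Smarcb1-RE against control (squares) and Smarcb1-RE against SAHA (triangles), filled where the adjusted p was under 0.05. Il1rl1, Il4ra and Nfil3 lie above 0 in SAHA and below 0 in Smarcb1-RE, Gata3 reaches 2.57 in Smarcb1-RE, and the fitted Il1rl1 value of -6.24 depends on the floor.

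The genes next to the members were examined for their own changes. On chromosome 11, 11 neighbours of the cytokine cluster were listed and 7 tested, of which 4 rose and 2 fell in SAHA and 4 rose and 3 fell in Smarcb1-RE against control. Nothing is read from this mix, since over all tested genes 32.6% rose and 34.3% fell in SAHA, and 39.2% rose and 38.6% fell in Smarcb1-RE. Rad50, the DNA repair gene that lies between Il13 and Il5 and holds the locus control region of the cluster, gave 0.03 (SE 0.04, adjusted p = 0.509) in SAHA and rose by 0.4 (SE 0.04, adjusted p = 1.41e-06) in Smarcb1-RE. Kif3a, a kinesin gene next to Il4, rose by 0.16 in SAHA and fell by 0.62 in Smarcb1-RE (adjusted p = 0.0158 and 2.33e-07, edgeR). Irf1, the interferon-responsive factor beyond Il5, rose by 0.76 (SE 0.04) in SAHA and by 0.09 (SE 0.04) in Smarcb1-RE. Further out, Uqcrq, a subunit of mitochondrial complex III, fell by 0.82 (SE 0.07) and Aff4, a subunit of the super elongation complex, rose by 0.7 (SE 0.06) in Smarcb1-RE.

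On chromosome 1, Il1rl1 lies among genes of the IL-1 receptor family, of which Il18r1, encoding a chain of the IL-18 receptor, begins 136 bases after the end of Il1rl1. Il18r1 had 6, 6 and 13 counts in control, 7, 5 and 13 with SAHA and 68, 64 and 83 in Smarcb1-RE. It rose by 3.13 on the log2 scale (SE 0.33, adjusted p = 1.95e-06, edgeR) in Smarcb1-RE against control and differed by 0.05 (95% interval -0.88 to 0.98) in SAHA. These adjacent receptor genes hence changed in opposite directions in Smarcb1-RE. Of the 8 listed neighbours, only Il18r1 and Mfsd9 were tested, and 5 were at or under the floor in all 9 libraries.

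**Figure D3:**
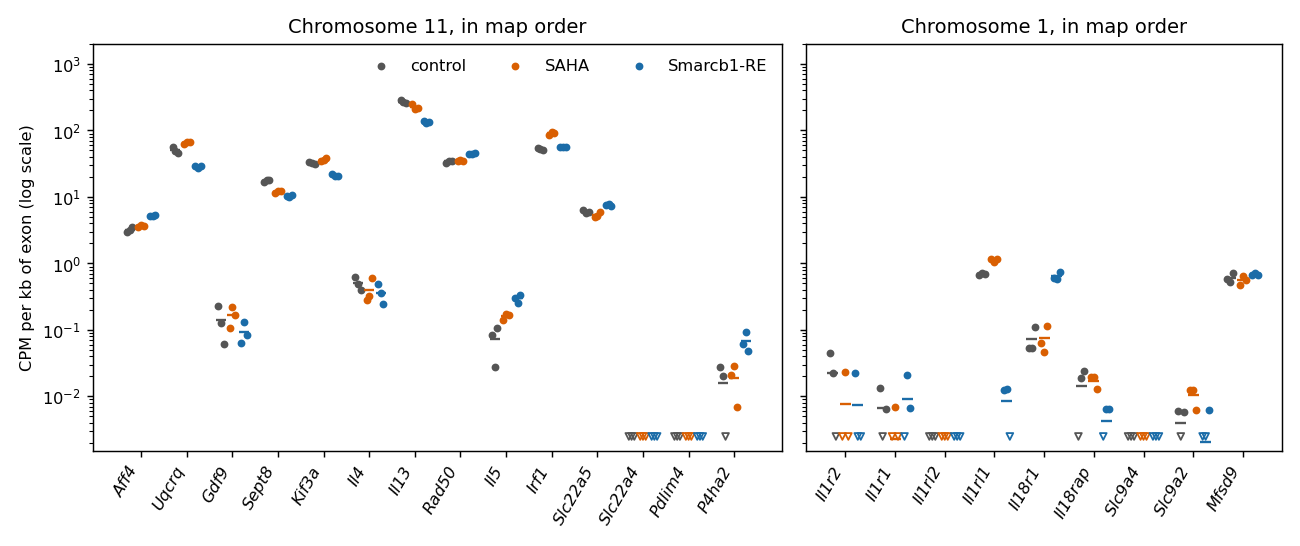
CPM per kb of exon, on a log scale, for the genes around Il4, Il13 and Il5 on chromosome 11 and around Il1rl1 on chromosome 1, in map order, with 1 point per library, a bar at each group mean and open triangles for libraries at 0 counts. Il13 exceeds Il4 and Il5 by more than 2 orders of magnitude in control, and Il1rl1 and Il18r1 trade places in Smarcb1-RE.

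Signalling genes downstream of these receptors were followed as lists, and the genes named as having risen or fallen passed the threshold in that comparison. Of 15 genes of IL-4 and IL-13 receptor signalling, 12 were tested, with 6 higher and 3 lower in SAHA. Against control, Smarcb1-RE had 6 higher and 4 lower, and against SAHA it had 4 in each direction. Over all tested genes, 32.6% were higher and 34.3% lower in SAHA, and 39.2% and 38.6% in Smarcb1-RE against control. For Smarcb1-RE against SAHA these shares were 37.7% and 36.8%, and nothing is read from the counts of this list. In SAHA, Socs3 and Jak2 rose by 1.79 (SE 0.07) and 0.94 (SE 0.04), and in Smarcb1-RE Socs1 fell by 1.24 (SE 0.09) and Cish rose by 0.95 (SE 0.20). Socs1 was also called lower in SAHA (-0.46, SE 0.09), and Jak2 was called lower in Smarcb1-RE against control (-0.15, SE 0.05). Irs2, an adaptor phosphorylated at the IL-4 receptor, had the largest change of the list, from 4, 4 and 2 counts in control to 22, 16 and 23 in Smarcb1-RE (log2 fold change 2.61, SE 0.39, adjusted p = 4.45e-05, edgeR). SOCS1, SOCS3 and CISH are feedback inhibitors of JAK-STAT signalling, and JAK2 is a kinase of cytokine receptors. Il2rg, the common gamma chain that pairs with IL-4Ra, rose in both, by 0.87 (SE 0.03) in SAHA and 0.86 (SE 0.03) in Smarcb1-RE. Il13ra1, the chain that pairs with IL-4Ra for IL-13 and was singled out after its values were seen, had 0 counts in all 9 libraries.

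Of 9 genes of IL-33 receptor signalling, 8 were tested, with 3 higher and 4 lower in SAHA. Against control, Smarcb1-RE had 2 higher and 5 lower, and against SAHA it had 3 in each direction. Shares over all tested genes were 32.6% and 34.3% in SAHA, 39.2% and 38.6% in Smarcb1-RE against control, and 37.7% and 36.8% against SAHA. These counts over 8 genes are a description only. Il1rap, the co-receptor of ST2, rose by 0.24 (SE 0.05) in SAHA and fell by 0.27 (SE 0.05) in Smarcb1-RE, in the same directions as Il1rl1. Myd88, the adaptor of the receptor, fell by 0.27 (SE 0.05) in SAHA and by 0.9 (SE 0.05) in Smarcb1-RE. Sigirr, an inhibitor of the family, rose by 0.3 (SE 0.08) and 0.72 (SE 0.08). Of the kinases, Irak4 fell by 0.9 (SE 0.07) in SAHA and was also called lower in Smarcb1-RE against control (-0.24, SE 0.07). Irak1 fell by 0.52 (SE 0.05) in SAHA and rose by 0.38 (SE 0.05) in Smarcb1-RE. Il33 itself, also singled out after its values were seen, had at most 5 counts in any library.

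Of 24 further regulators of type 2 transcription and chromatin, 22 were tested, with 8 higher and 5 lower in SAHA. Against control, Smarcb1-RE had 11 higher and 9 lower, and against SAHA it had 9 higher and 10 lower. Among all tested genes the shares were 32.6% and 34.3% in SAHA, 39.2% and 38.6% in Smarcb1-RE, and 37.7% and 36.8% against SAHA. Nothing is read from the counts of this list. Tcf7, encoding TCF-1, a factor of early and memory T cells that acts upstream of Gata3, fell from 282 ± 10.6 to 47.2 ± 2.13 CPM (SD, n = 3) in Smarcb1-RE, a log2 change of -2.58 (SE 0.05, adjusted p = 8.9e-13, edgeR). Runx1, a Runt-domain factor able to repress Gata3 in T cells, rose by 2.46 (SE 0.16) there, and Stat5a, a transducer of IL-2 signals, fell by 1.01 (SE 0.04). Runx1 and Stat5a were also called in the same directions in SAHA, at 0.58 (SE 0.18) and -0.46 (SE 0.04). Notch1, a receptor that can induce Gata3, rose in both, by 1.95 (SE 0.20) in SAHA and 1.23 (SE 0.21) in Smarcb1-RE. In SAHA, Irf4, a factor needed for T helper 2 differentiation, rose by 1.04 (SE 0.05), Bhlhe41, a helix-loop-helix factor of T helper 2 cells, rose by 0.85 (SE 0.05), and Nfatc2, a factor activated by T-cell receptor signals, fell by 1.15 (SE 0.11). All of these were called lower in Smarcb1-RE against control, with log2 fold changes of -0.5 (SE 0.05), -0.63 (SE 0.05) and -0.25 (SE 0.1). Irf4 and Bhlhe41 thus lay above control with SAHA and below it in Smarcb1-RE. Gata3 thus rose in Smarcb1-RE beside a fall of Tcf7.

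The remaining type 2 cytokines and effectors were nearly silent. Of 12 listed, Il10 alone was tested, 7 had 0 counts in every library, Il3, Il9 and Il21 among them, and 10 were at or under the floor in all 9 libraries. Of 18 type 2 surface receptors and prostaglandin genes, 8 were tested, with 5 higher and 3 lower in SAHA. Smarcb1-RE gave 2 higher and 3 lower relative to control, and 2 higher and 4 lower relative to SAHA. The background for SAHA was 32.6% called higher plus 34.3% called lower among all tested genes. For Smarcb1-RE it was 39.2% plus 38.6% relative to control, and 37.7% plus 36.8% relative to SAHA. With most tested genes called, the counts for these 8 genes only describe the list. Il7r, the IL-7 receptor chain that also serves TSLP, fell by 2.35 (SE 0.06) and Tnfrsf8, encoding CD30, by 2.34 (SE 0.05) in Smarcb1-RE, while Il2ra, the high-affinity IL-2 receptor chain, rose by 1.4 (SE 0.22) in SAHA and by 1.74 (SE 0.22) in Smarcb1-RE. With SAHA, Il7r and Tnfrsf8 rose by 0.43 (SE 0.05) and 0.21 (SE 0.04). Ptger4 had log2 fold changes of 0.86 (SE 0.04) in SAHA and -0.36 (SE 0.04) in Smarcb1-RE against control, both called. Cd200r1, an inhibitory receptor, fell by 0.84 (SE 0.06) in SAHA and rose by 0.44 (SE 0.05) in Smarcb1-RE.

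Genes of other T-cell programmes were set beside the type 2 genes. Of 12 type 1 genes, all tested, 9 were higher and 0 lower in SAHA, with 3 not called, where 32.6% and 34.3% of all tested genes were called, and the median log2 fold change was 0.44. In Smarcb1-RE against control, 5 were higher and 4 lower with a median of 0.16. Against SAHA 2 were higher and 8 lower with a median of -0.52. All tested genes had 39.2% higher and 38.6% lower against control, and 37.7% and 36.8% against SAHA. Ifng, the signature type 1 cytokine, rose by 2.9 (SE 0.06, adjusted p = 5.37e-11, edgeR) in SAHA, from 23.4 ± 2 to 175 ± 8.8 CPM (SD, n = 3), and differed by 0.1 (SE 0.07, adjusted p = 0.199) in Smarcb1-RE. Tbx21, encoding T-bet, the type 1 counterpart of GATA3, rose by 0.45 (SE 0.04) in SAHA and fell by 0.56 (SE 0.04) in Smarcb1-RE. At a low level, Eomes, encoding a T-box factor related to T-bet, rose from 11, 7 and 5 counts in control to 43, 34 and 35 in Smarcb1-RE (log2 fold change 2.31, SE 0.34, adjusted p = 4.07e-05, edgeR), and Hlx, a homeobox factor that acts with T-bet, rose from 5, 4 and 4 to 25, 22 and 28 (2.54, SE 0.32, adjusted p = 9.31e-06). These were the largest changes of the type 1 list in that comparison. Of 14 genes of type 17, follicular helper and regulatory cells, 5 were tested, with 3 higher in SAHA and 4 higher in Smarcb1-RE against control. The share of all tested genes called higher was 32.6% in SAHA and 39.2% in Smarcb1-RE. Nothing is read from counts over 5 genes. Ahr, the aryl hydrocarbon receptor, rose by 1.01 (SE 0.16) and 1.3 (SE 0.16), and Il17f, a type 17 cytokine at 5 to 27 counts per library, rose by 1.44 (SE 0.41, adjusted p = 0.00608) in Smarcb1-RE.

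**Figure D4:**
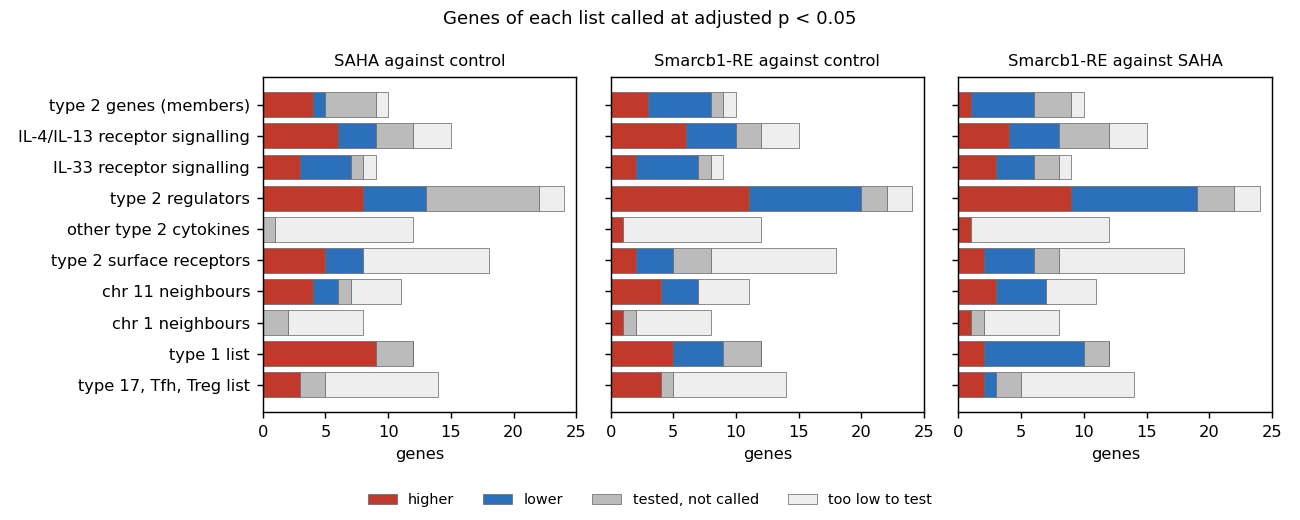
Number of genes called higher (red), called lower (blue), tested but not called (grey) and too low to test (white) in the type 2 gene list and 9 related lists, in each of the 3 comparisons. In SAHA the type 2 list has 4 higher and 1 lower of 9 tested and the type 1 list 9 higher and 0 lower of 12 tested, a difference that was not tested, beside 32.6% higher and 34.3% lower over all tested genes.

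Markers of other cells that make type 2 cytokines or receptors stayed low or were shared with T cells. Of 5 eosinophil markers, 4 were at or under the floor in all 9 libraries. Of 4 genes found in group 2 innate lymphoid cells, Il17rb had 0 counts, and Rora, also expressed by T cells, made up nearly all of the summed 104 to 121 CPM in control, 126 to 137 in SAHA and 162 to 164 in Smarcb1-RE. The summed B-cell list was at 0.936 to 1.14 CPM in control and 7.25 to 7.97 CPM in Smarcb1-RE, where Ms4a1 and Pax5 rose by 2.08 and 5.24 on the log2 scale (adjusted p = 5.86e-07 and 6.17e-07, edgeR). The summed macrophage list was at 2.03 to 2.55 CPM in control, 5.72 to 7.41 CPM in SAHA and 1.85 to 1.92 CPM in Smarcb1-RE. Cd68, the only tested gene of that list, rose by 1.99 in SAHA (adjusted p = 3.83e-07, edgeR). Itgam, too low to test, went the other way, to the floor in SAHA and at least 3.32-fold below control. Itgam was also at the floor in Smarcb1-RE, at least 3.33-fold below control. The summed T-cell list stayed between 3250 and 3670 CPM in all libraries. The part of these marker changes in the values of the type 2 genes was not tested.

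Genes with the most similar pattern were sought among 11139 genes by Pearson correlation of log2 CPM over the 9 libraries, which form 3 groups, so that the values mainly restate the group means. For Gata3 these were A230050P20Rik (r = 0.9973), Plekhf2 (0.9972) and Phf10 (0.9964), which rose by 1.17, 1.33 and 0.9 in Smarcb1-RE and differed by 0.06, 0.06 and -0.02 in SAHA, all on the log2 scale. Phf10 encodes a subunit of a SWI/SNF complex. For Il1rl1 they were Rassf3 (r = 0.998), G6pdx (0.9968) and Prf1 (0.9967), which fell by 0.5, 1.29 and 2.87 in Smarcb1-RE. In SAHA they differed from control by 0.05, 0.15 and 0.41, where Il1rl1 rose by 0.7. Prf1 encodes perforin of cytotoxic granules. None of the 6 changed as much as the gene it resembled.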

How the data were processed

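RNA was extracted with RNeasy columns from 3 control, 3 SAHA and 3 Smarcb1-RE cultures, and directional libraries were sequenced as single-end reads. The authors deposited estimated counts per Ensembl gene, not normalized. The submitters' processing notes name Salmon 0.14.1, DESeq2 1.22.2 and GRCm38 without their roles. Of 35288 identifiers, 99.46% matched GENCODE M21, and 52.4% of values above 0 were not whole. Counts were rounded and analysed in R 4.3.3 with edgeR 4.0.16 (TMM, filterByExpr with a minimum count of 10, glmQLFit, glmQLFTest, Benjamini-Hochberg adjustment, adjusted p under 0.05). The fit gave a common biological coefficient of variation of 5.24%. SE was derived from each log2 fold change and its F statistic. With 3 against 3 libraries, an exact permutation test cannot go below p = 0.1, so none was used. The calculations were tested on simulated data. The genes and all lists were chosen with earlier results of these data known. Named genes were all members, Smarcb1, at most 4 called genes per list and comparison with the largest change, no overlap between groups and a mean level of 0 or more in log2 CPM, and the listed cell markers. Irs2, Hlx, Eomes and Il17f, below that level, were added after their values were seen. Rad50, which lies between Il13 and Il5, was named outside that rule, and not every gene that met the rule is named. Alternatives were DESeq2 1.42.0, other normalizations, filters, thresholds and fits, and leaving out each library. The replicate numbers did not pair the libraries.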

Additional observations from a re-analysis of the deposited data

Results flagged for a closer look

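Among the type 2 genes, 3 were called in opposite directions in SAHA and Smarcb1-RE relative to the shared control libraries. The difference was tested by the direct comparison of Smarcb1-RE with SAHA in edgeR. Over all tested genes, 32.6% were higher and 34.3% lower in SAHA, and 39.2% and 38.6% in Smarcb1-RE. How many of all genes were called in opposite directions was not counted, so nothing is read from this number. Il1rl1 was 0.7 above control in SAHA and at -6.24 in Smarcb1-RE on the fitted log2 scale, a difference of -6.94 that depends on the floor. Il4ra was at 0.23 and -0.77, a difference of -1. Nfil3 was at 0.51 and -0.31, a difference of -0.82.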

How the results depend on the processing

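Of 421 values of the single type 2 genes under the other tests, normalizations, filters, fits and left-out libraries, with the threshold at an adjusted p of 0.05 throughout, 418 kept their direction and their side of the threshold, 3 passed it where they had not before, and 0 reversed. With library totals in place of TMM, 3 type 2 genes were higher in Smarcb1-RE against SAHA, as Il5 (1.05, adjusted p = 0.0269) and Stat6 (0.17, adjusted p = 0.00104) were then called beside Gata3. That scaling moved the median of all genes to 0.17 in Smarcb1-RE against control and 0.18 against SAHA, and the share of calls that were higher from 50.4% to 61% and from 50.6% to 62.1%. Leaving out each of the 9 libraries gave 1 to 2 type 2 genes higher in Smarcb1-RE against SAHA, the 2 without control replicate 2, when Il5 had 0.88 with an adjusted p of 0.05 as rounded. Requiring a log2 fold change of at least 1 in size gave 0 higher and 0 lower type 2 genes in SAHA, 3 lower in Smarcb1-RE against control and 3 lower against SAHA, with 1671, 3237 and 2706 genes called in all, against 9164, 10653 and 10212 without it. Requiring at least 10 counts in every library left Il1rl1, Il4 and Il5 untested, and separate fits to each pair of groups left Il5 untested in both comparisons with SAHA. Replicate numbers did not pair the libraries (correlations of deviations -0.072 to 0.037 for the same number), and with them as a block the type 2 genes gave the same counts: 4 higher and 1 lower in SAHA, 3 and 5 in Smarcb1-RE against control, 1 and 5 against SAHA. Depth limits Il4, Il5 and Maf, which had under 60 counts per library, and Il1rl1 in Smarcb1-RE. All 3 groups come from 1 cell line.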
